A study of Mus musculus with 8 samples.

Results

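Hormone genes of the anterior pituitary were looked up in RNA-seq libraries of the mouse arcuate nucleus, the hypothalamic region that lies next to the median eminence and the pituitary stalk. The set held 7 genes. Gh encodes growth hormone, Prl prolactin, Cga the alpha subunit shared by the glycoprotein hormones, Tshb the beta subunit of thyrotropin and Lhb that of luteinizing hormone, and Pitx1 and Pou1f1 encode transcription factors of pituitary cells. They were selected on the values of these same libraries, so their levels and fold changes are given as a description and carry no test. Rows with these names were taken from the knockout and the sponge gene tables, and 4 of the 7 genes, namely Gh, Prl, Cga and Lhb, had a row in both. Tshb, Pitx1 and Pou1f1 had no row in any of the gene tables, which together list 13769 genes, and count here as below the tables' cut-off, a mean of 0.5 FPKM in at least 1 of the groups compared. For Tshb this is a convention, since its 1 listed transcript had a mean of 0.794 FPKM in the knockout group, above that value. Transcript and gene values can differ: in library knockout 1 the transcript Cga-001 was at 20.6 FPKM and the gene Cga at 14.8 FPKM. Why Tshb has no gene row is not stated. Among those with rows, Lhb lay nearest to the cut-off, with a higher group mean of 0.618 FPKM in the sponge table. FPKM is the number of sequenced fragments, scaled to transcript length and to the mapped fragments of the library.

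Each of the 8 libraries came from arcuate tissue of 2 pooled C57BL/6 mice aged 4 months. The knockout group (libraries knockout 1 and knockout 2) were males of the genotype Pomc-Cre;miR-17-92flox/flox, in which Cre driven by the Pomc promoter deletes the miR-17-92 microRNA cluster, and their controls were wild type male littermates (1 and 2). The sponge group (sponge 1 and sponge 2) were females of the genotype Pomc-Cre;miR-7-sponge, whose sponge is an RNA that soaks up miR-7. Their controls were wild type female littermates, whose libraries carry the numbers 2 and 4. Pomc-Cre acts in cells that express or have expressed Pomc, which include arcuate neurons and the corticotrophs and melanotrophs of the pituitary, whereas the libraries hold RNA of all cells in the dissected tissue. Neither wild type group carries Cre, so the effect of Cre itself is part of both comparisons. In such bulk tissue, fewer cells of a type and less RNA per cell cannot be told apart. The libraries were of similar scale, with a summed FPKM of 141666 to 152741, a median gene at 4.51 to 4.85 FPKM and 144 to 192 genes listed at 0. The label of sponge 2 notes that its file of second reads is lacking, and whether its values rest on 1 read end is not stated. The read depth behind the values is unknown, so no counting interval is given.

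The anterior pituitary secretes peptide hormones from specialised cells: somatotrophs make growth hormone, lactotrophs prolactin, thyrotrophs thyrotropin and gonadotrophs luteinizing and follicle-stimulating hormone. POU1F1 is needed for the development of somatotrophs, lactotrophs and thyrotrophs and acts on the Gh, Prl and Tshb promoters, while PITX1 acts on several pituitary promoters, including that of Lhb. Prolactin cells are more numerous in the pituitary of female mice than in that of males. In the hypothalamus the arcuate nucleus is better known for the factors that control these hormones, such as growth hormone-releasing hormone and dopamine, than for the hormones themselves.

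The promoters of 5 of the 7 genes were found in the RefSeq table of the GRCm38.p6 assembly, which gives 250 bases before and 50 after the transcription start. Gh and Pitx1 had no entry there. The promoters of Prl, Cga, Lhb and Tshb are shown because these hormone subunits had a row in the gene or transcript tables and their levels moved between libraries. Capitals mark matches to TATNCAT (the core of the POU1F1 site), TAATCC (a core bound by PITX1), TGACCTTG (a core bound by NR5A1, the steroidogenic factor of gonadotrophs) and TATAAA (the TATA box), each searched on both strands.
Prl (chr13:27057320-27057619, plus strand): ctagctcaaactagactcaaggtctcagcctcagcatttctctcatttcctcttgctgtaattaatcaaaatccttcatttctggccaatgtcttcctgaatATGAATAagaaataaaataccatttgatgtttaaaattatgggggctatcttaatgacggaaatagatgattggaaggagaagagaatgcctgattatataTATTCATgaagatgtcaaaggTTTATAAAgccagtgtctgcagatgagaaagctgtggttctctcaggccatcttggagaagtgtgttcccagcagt
Cga (chr4:34893529-34893828, plus strand): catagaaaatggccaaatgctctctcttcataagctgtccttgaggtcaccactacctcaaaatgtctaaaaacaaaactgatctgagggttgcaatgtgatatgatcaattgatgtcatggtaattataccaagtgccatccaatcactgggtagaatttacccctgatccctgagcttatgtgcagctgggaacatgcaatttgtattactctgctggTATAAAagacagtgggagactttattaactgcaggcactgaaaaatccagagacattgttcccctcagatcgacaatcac
Lhb (chr7:45420696-45420995, plus strand): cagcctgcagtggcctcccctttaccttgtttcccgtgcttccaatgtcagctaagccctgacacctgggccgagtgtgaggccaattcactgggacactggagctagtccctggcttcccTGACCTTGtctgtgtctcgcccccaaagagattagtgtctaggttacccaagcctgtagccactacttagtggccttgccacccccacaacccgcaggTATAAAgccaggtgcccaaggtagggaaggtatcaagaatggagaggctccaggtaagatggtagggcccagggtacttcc
Tshb (chr3:102782665-102782964, minus strand): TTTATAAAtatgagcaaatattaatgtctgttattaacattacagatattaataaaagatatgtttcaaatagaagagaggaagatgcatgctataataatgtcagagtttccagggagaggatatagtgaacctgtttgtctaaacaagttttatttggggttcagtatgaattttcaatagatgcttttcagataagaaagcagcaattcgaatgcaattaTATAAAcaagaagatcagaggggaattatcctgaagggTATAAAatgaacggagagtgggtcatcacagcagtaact
In the Prl promoter TATTCAT lay at positions -47 to -41 from the start, and ATGAATA, the same core on the other strand, at -148 to -142. A match to that core was present in 8.84% of the 32851 mouse promoters of the table. The Cga, Lhb and Tshb windows held no match to it. The Lhb promoter held TGACCTTG at -129 to -122, a match present in 1.56% of promoters. All 4 promoters held TATAAA between -31 and -19, and 13.6% of promoters held it somewhere in the window. In Prl, and at the far end of the Tshb promoter, it overlapped TTTATA, its match on the other strand. TAATCC, found in 7.06% of promoters, was in none of the 4 windows. The search took these exact letters only, so a PITX1 or POU1F1 site with other letters would be missed. These matches describe the letters of the windows and were not tested as binding sites.

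Gh (ENSMUSG00000020713.6, chr11:106300271-106301865, minus strand, 5 exons) was the most abundant of the hormone genes in 7 of the 8 libraries, all but wild type female 4, and reached the level of abundant arcuate transcripts in knockout 1. Its FPKM was 248 and 6.54 in knockout 1 and 2, against 10.9 and 61.9 in wild type male 1 and 2. It was 40.3 and 3.59 in sponge 1 and 2, against 13.9 and 2.25 in wild type female 2 and 4. Knockout 1 was high, wild type male 2 and sponge 1 followed, and the groups overlapped in both comparisons. In knockout 1 Gh ranked 51 from the top of 13465 listed genes and took 0.163% of the summed FPKM, and in wild type female 4 it ranked 9709 of 13434. The mean was 127 ± 171 FPKM in knockout and 36.4 ± 36.1 FPKM in wild type males (SD, n = 2 each). It was 21.9 ± 25.9 FPKM in sponge and 8.05 ± 8.21 FPKM in wild type females (SD, n = 2 each). The SD was thus as large as the mean, or nearly so, in every group.

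Prl (ENSMUSG00000021342.13, chr13:27057570-27065204, plus strand, up to 5 exons) varied over a similar range but in another order of libraries. Its FPKM was 72.5 and 0.776 in knockout 1 and 2, against 1.12 and 6.46 in wild type male 1 and 2. It was 18.9 and 1.41 in sponge 1 and 2, against 12.2 and 2.99 in wild type female 2 and 4. Knockout 1 was again the highest, and the other knockout library was the lowest of all 8, so the wild type males lay between them. Likewise both wild type female values lay between those of the sponge libraries. The mean was 36.6 ± 50.7 FPKM in knockout and 3.79 ± 3.77 FPKM in wild type males, and 10.1 ± 12.3 FPKM in sponge and 7.62 ± 6.55 FPKM in wild type females (SD, n = 2 each).

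Cga (chr4:34893779-34907370, plus strand, 4 or 5 exons) and Lhb (chr7:45420820-45421897, plus strand, 3 exons), which encode the subunits that pair to form luteinizing hormone, were lower. Cga was at 14.8 and 0.159 FPKM in knockout 1 and 2, against 0.225 and 1.11 FPKM in wild type male 1 and 2. It was at 2.26 and 1.12 FPKM in sponge 1 and 2, against 0.678 FPKM in wild type female 2 and a listed 0 in wild type female 4. Knockout 1 stood 6.56-fold above the next library, and both sponge libraries were above both wild type females. Lhb was at 1.96 and 0.156 FPKM in knockout 1 and 2, against 0.814 and 0.350 FPKM in wild type male 1 and 2. It was at 0.692 and 0.0711 FPKM in sponge 1 and 2, against 0.665 and 0.570 FPKM in wild type female 2 and 4. The 2 control values lay between those of the other genotype in each sex.

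**Figure D1:**
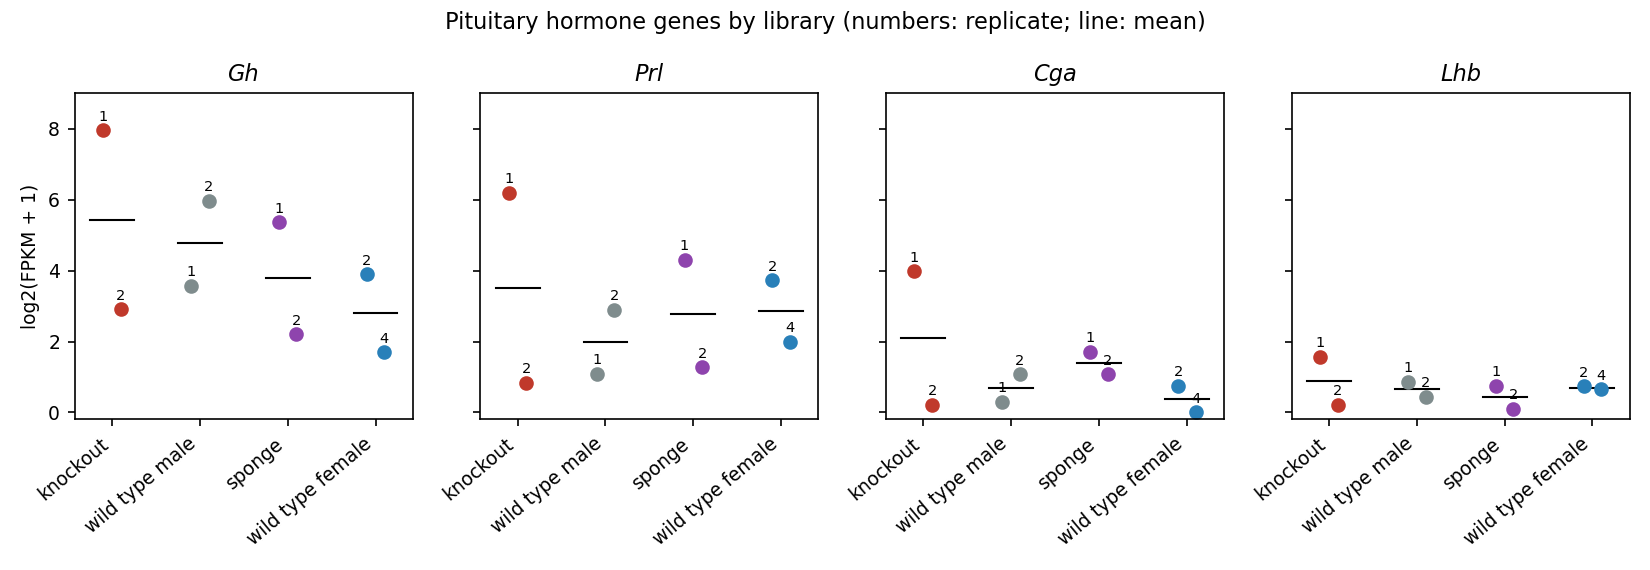
Level of Gh, Prl, Cga and Lhb in each of the 8 libraries, on the vertical axis as log2(FPKM + 1). Points are libraries, the number beside a point is the replicate number in the labels, and the line is the mean of the 2 libraries of a group. Knockout 1 is the highest library for all 4 genes, and its partner knockout 2 is among the 3 lowest for each of them.

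Each of the 4 genes was highest in knockout 1, as the plot of levels by library shows. The highest library exceeded the median library 20.1-fold for Gh, 15.4-fold for Prl, 16.6-fold for Cga and 3.18-fold for Lhb. For Gh and Prl, neighbouring libraries below knockout 1 differed by less than the 2 libraries of any group did. For Gh the order ran from knockout 1 through wild type male 2, sponge 1, wild type female 2, wild type male 1, knockout 2 and sponge 2 to wild type female 4. For Prl it ran from knockout 1 through sponge 1, wild type female 2, wild type male 2, wild type female 4, sponge 2 and wild type male 1 to knockout 2. Sponge 1 and wild type female 2 lay above the other library of their group for both hormones, and so did wild type male 2 in the male controls.

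The reading of the genes is limited by annotation in some cases. Of the 678 exon bases of Lhb in GENCODE M21, 138 (20.4%) overlap exons of Ruvbl2 on the opposite strand, and Ruvbl2 was at 6.94 to 8.95 FPKM over the 8 libraries. Of the 954 exon bases of Cga, 305 (32.0%) overlap the antisense gene Platr9, which the tables do not list. The libraries were stranded, but whether strand was used in counting is not given in the sources used here, so reads of Lhb and Cga and of their antisense partners may not be separated. Gh and Prl share no exon bases with another gene in that annotation.

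The transcript tables resolved Prl into a pair of transcripts, and added Tshb. Prl-201 (895 bases) was listed in every library, at 50.4 and 0.776 FPKM in knockout 1 and 2 and 1.12 and 4.69 FPKM in wild type male 1 and 2. It was at 8.50 and 1.41 FPKM in sponge 1 and 2 and 8.48 and 1.40 FPKM in wild type female 2 and 4. Prl-001 (886 bases) was listed at 0 in knockout 2, wild type male 1 and sponge 2, the libraries of lowest Prl. In the remaining libraries it made up 31.1% of the summed Prl FPKM in knockout 1, 27.8% in wild type male 2, 55.6% in sponge 1, and 31.3% and 53.7% in wild type female 2 and 4. Tshb had a row at the transcript level and for the knockout comparison alone, with 1.59 FPKM for Tshb-001 in knockout 1 and a listed 0 in knockout 2 and in both wild type male libraries. Fshb, the beta subunit of follicle-stimulating hormone and no member of the set, was at 2.39 FPKM in knockout 1 and listed at 0 in the same 3 other libraries (log2 fold change 0.88 ± 0.61, limma adjusted p = 0.792). Listed zeros are not read as absence, since Sox2, a gene widely expressed in neural tissue, was listed at 0 in 6 libraries and at 29.4 FPKM in wild type female 4.

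The ratio of Gh to Prl, which was looked at after the values had been seen and has no test, was lower in the female than in the male libraries. It was 2.14 and 2.54 in sponge 1 and 2 and 1.13 and 0.751 in wild type female 2 and 4. It was 3.42 and 8.42 in knockout 1 and 2 and 9.65 and 9.58 in wild type male 1 and 2. The 4 female libraries ran from 0.751 to 2.54 with a median of 1.64. The 4 male libraries ran from 3.42 to 9.65 with a median of 9.0, and the sexes did not overlap. Ratios of Gh to Lhb and of Prl to Cga were also computed, and neither separated the sexes. Gh to Lhb ran from 3.94 to 58.2 in the female libraries and from 13.3 to 177 in the male ones. Prl to Cga ran from 1.27 to 18.1 in the female libraries with a value and from 4.89 to 5.83 in the male ones. How many other gene ratios part these libraries was not counted, so nothing further is read from the separation by Gh to Prl. Wild type male 1 and 2, whose Gh differed 5.70-fold, had nearly the same ratio of Gh to Prl. Both genes have a similar transcript length, 862 bases for Gh and 886 or 895 for Prl, and FPKM is scaled to length. The summed FPKM of Gh, Prl, Cga and Lhb was 338 and 7.63 in knockout 1 and 2, 13.0 and 69.8 in wild type male 1 and 2, 62.1 and 6.19 in sponge 1 and 2, and 27.5 and 5.80 in wild type female 2 and 4. The ratio of Gh to Prl thus separated the female libraries from the male ones. The female libraries were all from the sponge line and its littermates, the male ones all from the miR-17-92 line and its littermates. Sex and line thus cannot be told apart. By contrast, the sum of the hormones separated neither the sexes nor the genotypes.

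**Figure D2:**
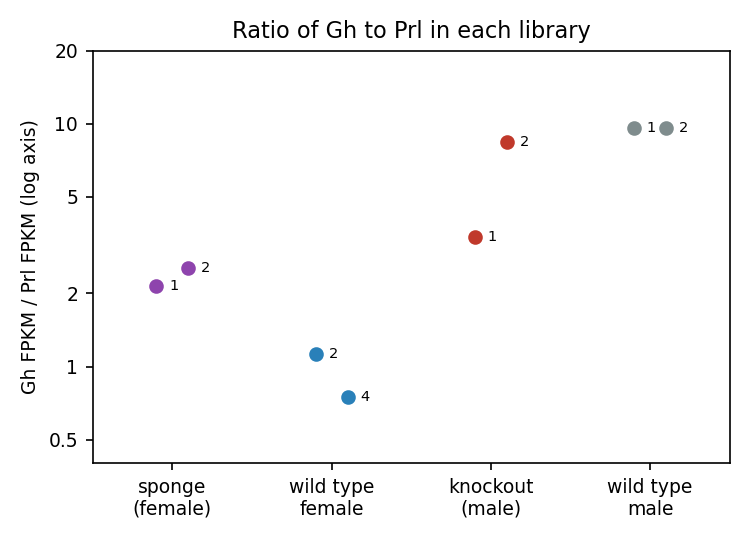
Ratio of Gh to Prl FPKM in each library, on a log axis, with the replicate number beside each point. The female libraries (sponge and wild type female) lie at or below 2.54 and the male libraries (knockout and wild type male) at or above 3.42.

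The spread between the 2 libraries of a group was set beside that of all genes, as a description of the libraries on which the hormone genes were selected. In the knockout group the absolute difference on the log2(FPKM + 1) scale was 5.05 for Gh, 5.37 for Prl, 3.77 for Cga and 1.36 for Lhb. Of 13155 genes, 15 had a larger difference between the knockout libraries than Gh, 9 a larger one than Prl and 43 a larger one than Cga. In the wild type males the difference was 2.41 for Gh and 1.81 for Prl, which 156 and 315 genes exceeded. In the sponge group it was 3.17 for Gh and 3.04 for Prl, which 73 and 85 of 13157 genes exceeded, and in the wild type females 2.20 for Gh and 1.73 for Prl, which 183 and 328 genes exceeded. The median gene differed by 0.22 to 0.26 between the libraries of a group. The 95th percentile of all genes lay between 1.22 and 1.26, below Gh and Prl in each group. Cga lay at 0.78 in wild type males, 0.62 in sponge and 0.75 in wild type females. Since large differences between libraries could have led to the selection, these ranks support nothing further.

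**Figure D3:**
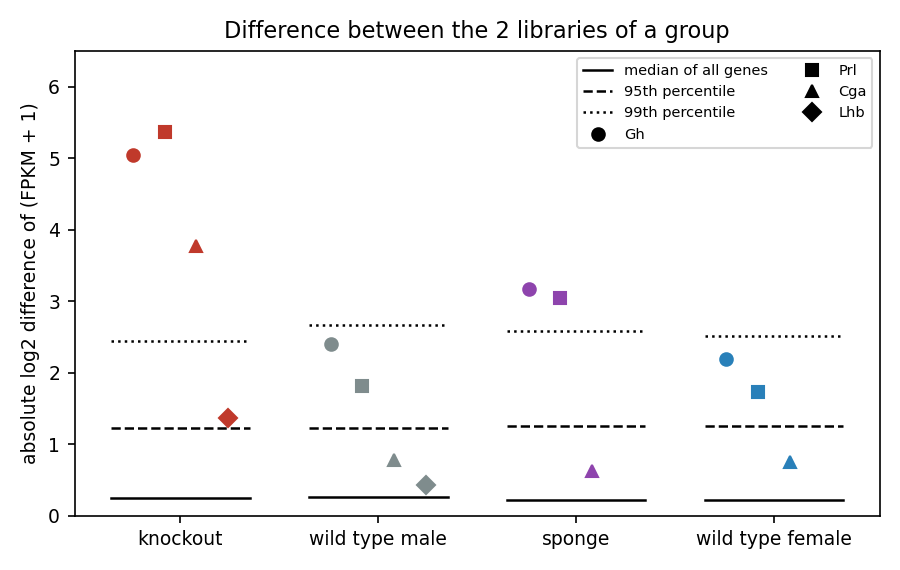
Absolute difference in log2(FPKM + 1) between the 2 libraries of each group, for Gh, Prl, Cga and Lhb (symbols) and as the median, 95th and 99th percentile of all genes tested (lines). Gh and Prl lie above the 95th percentile in every group, and above the 99th in knockout and sponge. Lhb is drawn for the male groups only, since its mean of 0.4995 FPKM in the sponge comparison missed the minimum of 0.5.

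Knockout and wild type males were set side by side in the study to find genes that depend on miR-17-92 in POMC neurons. The hormone genes' values describe the libraries on which they were selected and have no test. The log2 fold change (limma on log2(FPKM + 1), ± SE) was 0.67 ± 1.86 for Gh, 1.52 ± 1.88 for Prl, 1.41 ± 1.29 for Cga and 0.24 ± 0.50 for Lhb (n = 2 each). All 4 were positive, with a median of 1.04 against 0.03 over all genes. Over all 13155 genes fitted, 0.0608% (8 genes) had an adjusted p under 0.05, 0 of these 4 among them. The positive direction rested on 1 library. Without knockout 1 the values became -1.86 for Gh, -1.16 for Prl, -0.47 for Cga and -0.44 for Lhb, and without knockout 2 they became 3.19, 4.21, 3.30 and 0.92 in the same order. Without wild type male 1 the value of Gh also turned, to -0.54. For 0 of the 4 genes did the 2 groups not overlap, where 38.5% of all genes tested showed no overlap. Since the members were selected on this contrast, nothing is read from these counts.

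The sponge comparison, made to find genes that depend on miR-7, gave 0.99 ± 1.36 for Gh, -0.07 ± 1.24 for Prl and 1.02 ± 0.37 for Cga (log2 fold change ± SE, n = 2 each). Lhb, with a mean of 0.4995 FPKM over the 4 libraries, just missed the minimum of 0.5 and was not fitted. Its difference in log2(FPKM + 1) was -0.27. Over all 13157 genes fitted, 0.106% (14 genes) had an adjusted p under 0.05, 0 of these 3 among them. Their median was 0.99, against -0.03 over all genes. Cga was the 1 gene of the 3 whose groups did not overlap, where 30.8% of all genes tested showed no overlap. The size of its fold change depended on the constant added before the logarithm, since 1 of its libraries was listed at 0: it was 2.60 with 0.1 in place of 1. As above, nothing is read from the counts, since the members were selected on these libraries. The value of Gh turned to -0.60 without sponge 1 and to -0.11 without wild type female 4, and that of Prl ran from -1.59 without sponge 1 to 1.45 without sponge 2.

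The comparison of wild type females with wild type males asked which arcuate genes differ by sex, and it uses libraries on which the members were selected. The log2 fold change of females over males was -1.98 ± 1.13 for Gh, 0.87 ± 0.88 for Prl, -0.31 ± 0.41 for Cga and 0.05 ± 0.22 for Lhb (± SE, n = 2 each). Gh and Prl thus had opposite signs. Over all 13114 genes fitted, 0.0686% (9 genes) had an adjusted p under 0.05, 0 of these 4 among them, and 34.9% showed no overlap between the groups, again 0 of these 4 among them. Nothing is read from these counts either. Their median was -0.13, against 0.06 over all genes. The value of Gh stayed between -3.18 and -0.77 with any 1 library left out. That of Prl ran from -0.04 without wild type male 1 to 1.77 without wild type male 2, and that of Cga from -0.70 without wild type male 1 to 0.08 without wild type male 2. Cga, at a mean of 0.5029 FPKM, just passed the minimum, and its value was -1.17 with a constant of 0.1. As for the ratio, sex stands with breeding line. The comparison of the sexes shares its wild type libraries with the knockout and the sponge comparison, so its values are not independent of theirs.

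**Figure D4:**
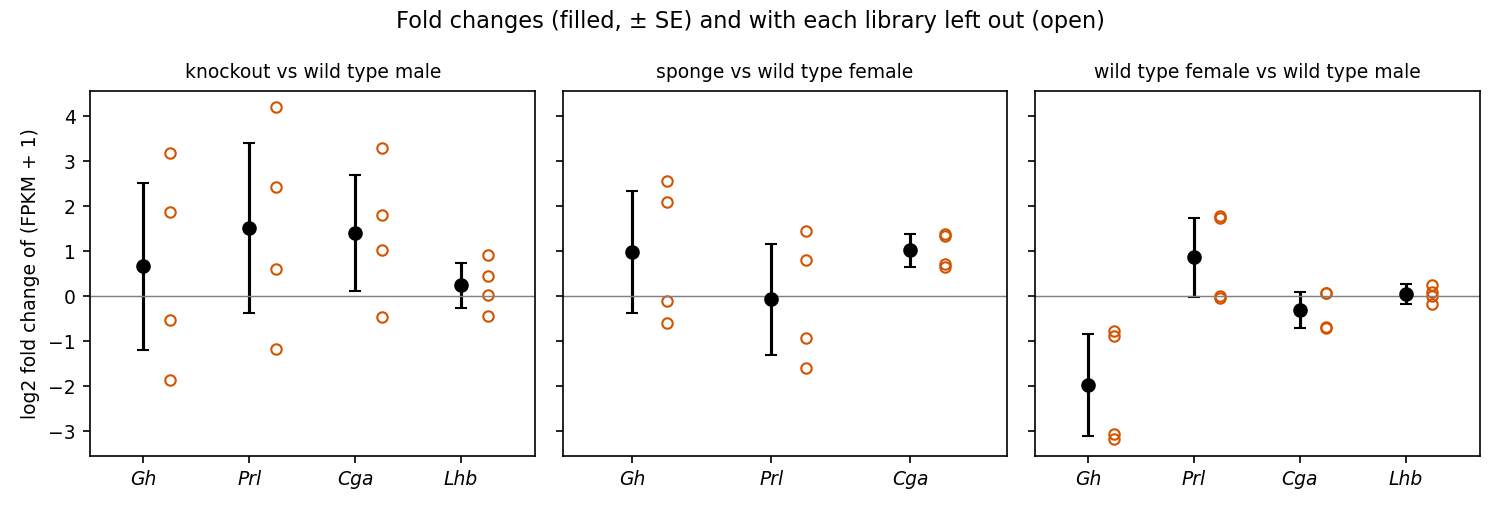
Log2 fold change of log2(FPKM + 1) for each hormone gene in the 3 comparisons (filled, with bars for ± 1 SE) and the same value with each of the 4 libraries left out in turn (open). In the knockout comparison all 4 genes have an open point below 0, the value without knockout 1, of -1.86 for Gh. Lhb was not fitted in the sponge comparison.

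Other pituitary genes were taken from lists of transcription factors, receptors, hormones and cell markers of the gland. Of 21 transcription factors 12 had a row in a gene table. Lhx3, which acts early in pituitary development, was among those without one, as were Lhx4, Hesx1, Neurod4, Gata2, Foxl2 and Pax7. None of the 10 fitted in the knockout comparison, of the 11 in the sponge comparison or of the 10 in the comparison of the sexes rose or fell past an adjusted p of 0.05 with limma (1, 0 and 0 at an unadjusted p under 0.05). Over all genes the share at an unadjusted p under 0.05 was 5.33% for knockout, 3.76% for sponge and 4.61% for the sexes, to be read beside this list and those that follow. Here and in the lists that follow, an ordinary equal-variance test with adjustment also called 0 genes. The median log2 fold change of the list was 0.08 for knockout, -0.24 for sponge and 0.07 for females over males, against 0.03, -0.03 and 0.06 over all genes tested. Tbx19, the factor of corticotrophs and melanotrophs, was at 0.429 and 1.16 FPKM in knockout 1 and 2, against 0.459 and 1.08 FPKM in wild type male 1 and 2. Knockout 1 and wild type male 1, far apart in hormone RNA, were close to each other. The most abundant of the list were Sox9 (mean 8.19 FPKM over 8 libraries) and Rxrg (7.82 FPKM), which neural tissue also expresses. The smallest p belonged to Zbtb20 in the knockout comparison (log2 fold change 0.96 ± 0.31, limma adjusted p = 0.792), to Isl1 in the sponge comparison (0.41 ± 0.16, limma adjusted p = 1) and to Insm1 between the sexes (-0.94 ± 0.61, limma adjusted p = 0.92). The value of Insm1 was -0.11 without wild type female 2 and -1.78 without wild type female 4.

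Pomc, which is made in pituitary corticotrophs and melanotrophs as well as in arcuate neurons, had another order of libraries than Gh and Prl, with sponge 1 highest and sponge 2 lowest. It was at 33.3 and 14.9 FPKM in knockout 1 and 2, against 60.9 and 27.9 FPKM in wild type male 1 and 2. It was at 90.4 and 12.4 FPKM in sponge 1 and 2, against 37.4 and 71.7 FPKM in wild type female 2 and 4. Its log2 fold change was -0.86 ± 0.55 for knockout (limma adjusted p = 0.792), -0.60 ± 1.04 for sponge (limma adjusted p = 1) and 0.32 ± 0.52 for females over males (limma adjusted p = 0.948), and none passed.

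Of 16 receptors of pituitary cells 12 had a row, and those of growth hormone-releasing hormone and gonadotropin-releasing hormone, Ghrhr and Gnrhr, had none, nor did Avpr1b or the melatonin receptor Mtnr1a of the pars tuberalis. Of the 12 fitted, 0 passed in any of the 3 comparisons, with 1, 3 and 3 at an unadjusted p under 0.05 and medians of 0.11, -0.23 and 0.15 in knockout, sponge and sex comparison. Trhr, the receptor of thyrotropin-releasing hormone, was at 2.94 and 2.58 FPKM in knockout 1 and 2 and 2.17 and 2.26 FPKM in wild type male 1 and 2. Drd2, the dopamine receptor that restrains prolactin release, was at 1.02 and 1.16 FPKM in knockout 1 and 2 and 2.95 and 0.981 FPKM in wild type male 1 and 2. Both varied less between these libraries than Gh and Prl did. The most abundant were the glucocorticoid receptor Nr3c1 (mean 16.5 FPKM) and the thyroid hormone receptor Thrb (4.00 FPKM), both also made in neurons. The somatostatin receptor Sstr1 had the smallest p in the knockout comparison (1.30 ± 0.23, limma adjusted p = 0.421) and between the sexes (2.67 ± 0.34, limma adjusted p = 0.223), and Thrb in the sponge comparison (-0.71 ± 0.19, limma adjusted p = 0.959). Sstr1 was at 0 and 0.11 FPKM in wild type male 1 and 2, the controls of both these comparisons. It was at 2.00 and 1.23 FPKM in knockout 1 and 2 and 3.98 and 8.06 FPKM in wild type female 2 and 4. Both results thus rest on the same low controls and are not separate. The size for Sstr1 depended on the constant added before the logarithm. It was 3.53 for knockout and 5.32 for the sexes with 0.1 in place of 1.

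Of 12 markers of pituitary cell types 8 had a row, and Pappa2, Tgfbr3l, Oacyl and Lcn2 had none. Of the 8, 7 and 8 fitted in the knockout, sponge and sex comparisons 0 passed, with 2, 0 and 1 at an unadjusted p under 0.05 and medians of -0.08, 0.07 and 0.12. Dlk1, abundant in somatotrophs, was at 3.24 and 7.59 FPKM in knockout 1 and 2, against 26.1 and 3.30 FPKM in wild type male 1 and 2. Spp1, a secreted phosphoprotein gene, was at 5.61 and 3.22 FPKM in knockout 1 and 2, against 1.98 and 0.800 FPKM in wild type male 1 and 2. The 2 genes thus differed, with knockout 1 highest for Spp1 and wild type male 1 highest for Dlk1. Mia averaged 6.46 FPKM. Sox14 was listed at 0 in wild type female 2 and 4, against 3.39 and 2.11 FPKM in wild type male 1 and 2. Its fold change and SE between the sexes, given next, thus rest on these listed zeros. The smallest p belonged to Spp1 for knockout (1.19 ± 0.37, limma adjusted p = 0.792), Cpxm2 for sponge (0.30 ± 0.17, limma adjusted p = 1) and Sox14 between the sexes (-1.89 ± 0.23, limma adjusted p = 0.213).

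Hypothalamic factors that act on these hormones were all listed, and 0 of 12 passed in any of the 3 comparisons (2, 0 and 2 at an unadjusted p under 0.05). In the knockout comparison 11 of the 12 had a negative log2 fold change, with a median of -0.28, where 46.1% of all genes tested were negative and the median was 0.03. The medians of the list were 0.07 for sponge and -0.23 for females over males. Ghrh, which drives growth hormone release, was at 5.50 and 12.7 FPKM in knockout 1 and 2, against 6.42 and 13.3 FPKM in wild type male 1 and 2. It was at 11.8 and 13.0 FPKM in sponge 1 and 2, against 12.1 and 9.81 FPKM in wild type female 2 and 4. Its range was narrow beside that of Gh, and it was lowest in knockout 1. Sst, which restrains growth hormone release, was at 187 and 10.2 FPKM in sponge 1 and 2, against 1.67 and 5.91 FPKM in wild type female 2 and 4. It had the smallest p of the list in that comparison (3.42 ± 1.51, limma adjusted p = 1), and its SE was wide because sponge 1 was far above sponge 2. Trh was at 31.5 and 7.90 FPKM in knockout 1 and 2, against 60.4 and 38.0 FPKM in wild type male 1 and 2. Th, the enzyme of the dopamine neurons that restrain prolactin, was at 16.7 and 15.3 FPKM in wild type female 2 and 4, against 9.67 and 9.67 FPKM in wild type male 1 and 2 (log2 fold change 0.67 ± 0.16, limma adjusted p = 0.701). Avp (mean 144 FPKM) and Oxt (86.0 FPKM) were the most abundant, with Oxt at the smallest p for knockout (-1.02 ± 0.26, limma adjusted p = 0.716). Between the sexes it was Tac2 (1.27 ± 0.26, limma adjusted p = 0.574).

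Of 10 receptors of the hormones and their signalling genes 8 were fitted, and 0 passed in any comparison (1, 0 and 1 at an unadjusted p under 0.05), with medians of 0.14, -0.005 and 0.06. Ghr, the growth hormone receptor, was at 3.01 and 2.43 FPKM in knockout 1 and 2, against 2.13 and 2.77 FPKM in wild type male 1 and 2. Prlr, the prolactin receptor, was at 1.04 and 1.31 FPKM in knockout 1 and 2, against 2.60 and 2.73 FPKM in wild type male 1 and 2 (-0.76 ± 0.19, limma adjusted p = 0.709). Tshr was at 1.90 and 2.13 FPKM in sponge 1 and 2, against 0.344 and 1.62 FPKM in wild type female 2 and 4 (0.68 ± 0.37, limma adjusted p = 1). Stat5b averaged 15.5 FPKM over the 8 libraries. Jak2 averaged 8.57 FPKM and had the smallest p between the sexes (0.46 ± 0.16, limma adjusted p = 0.92). Lhcgr and Igf1 had no row. Of the 9 secretory granule genes, which neurons and endocrine cells share, 0 passed in any comparison (1, 0 and 0 at an unadjusted p under 0.05), with medians of 0.11, -0.03 and 0.17. Cpe averaged 388 FPKM and Scg2 328 FPKM over the 8 libraries, and the smallest p belonged to Scg5 for knockout (0.81 ± 0.24, limma adjusted p = 0.792), Chga for sponge (-0.47 ± 0.20, limma adjusted p = 1) and Cpe between the sexes (0.39 ± 0.21, limma adjusted p = 0.92).

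Markers of other cells that a dissection could include were summed per library. All 8 arcuate neuron markers, among them Agrp, Npy and Pomc, were listed above 0 in every library. So were all but 144 to 192 of the genes listed per library, so this is no check of the dissection. The marker sums were 197 to 210 FPKM in knockout and 250 to 268 in wild type males. In sponge they were 221 to 306 FPKM and in wild type females 183 to 266. Genes of the meninges and fibroblasts (13 of 14 with values in all 8 libraries, none at 0) summed to 376 and 256 FPKM in knockout 1 and 2, against 92.4 and 86.2 FPKM in wild type male 1 and 2. They summed to 266 and 82.8 FPKM in sponge 1 and 2, against 82.5 and 105 FPKM in wild type female 2 and 4. They were highest in knockout 1 as the hormones were, and high in sponge 1, but also high in knockout 2, where the hormones were low. Most of each sum was Ptgds, at 327 FPKM in knockout 1. Of 10 choroid plexus genes 5 had 8 values, with Kcnj13 at 0 in wild type male 2. Their sums were 14.0 to 19.5 FPKM in knockout and 9.35 to 21.8 in wild type males. They were 19.3 to 46.5 FPKM in sponge and 19.7 to 534 in wild type females. Wild type female 2 stood apart, with Ttr at 510 FPKM. The sums of tanycyte and pituicyte genes (11 of 12, none at 0) were 35.1 to 35.9 FPKM in knockout, 35.4 to 41.3 in wild type males, 46.6 to 50.7 in sponge and 38.6 to 45.8 in wild type females. Endothelial genes (6 of 6) summed to 24.9 to 48.0 FPKM in knockout, 30.5 to 45.2 in wild type males, 33.0 to 34.5 in sponge and 30.1 to 40.9 in wild type females, with Cldn5 listed at 0 in knockout 1. Oligodendrocyte genes (8 of 8, none at 0) summed to 162 to 184 FPKM in knockout, 132 to 195 in wild type males, 119 to 133 in sponge and 177 to 190 in wild type females. Blood cell genes (4 of 5, none at 0) summed to 103 to 146 FPKM in knockout, 75.2 to 144 in wild type males, 43.2 to 78.8 in sponge and 38.6 to 87.2 in wild type females. The part of any of these cells in the hormone values was not tested.

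**Figure D5:**
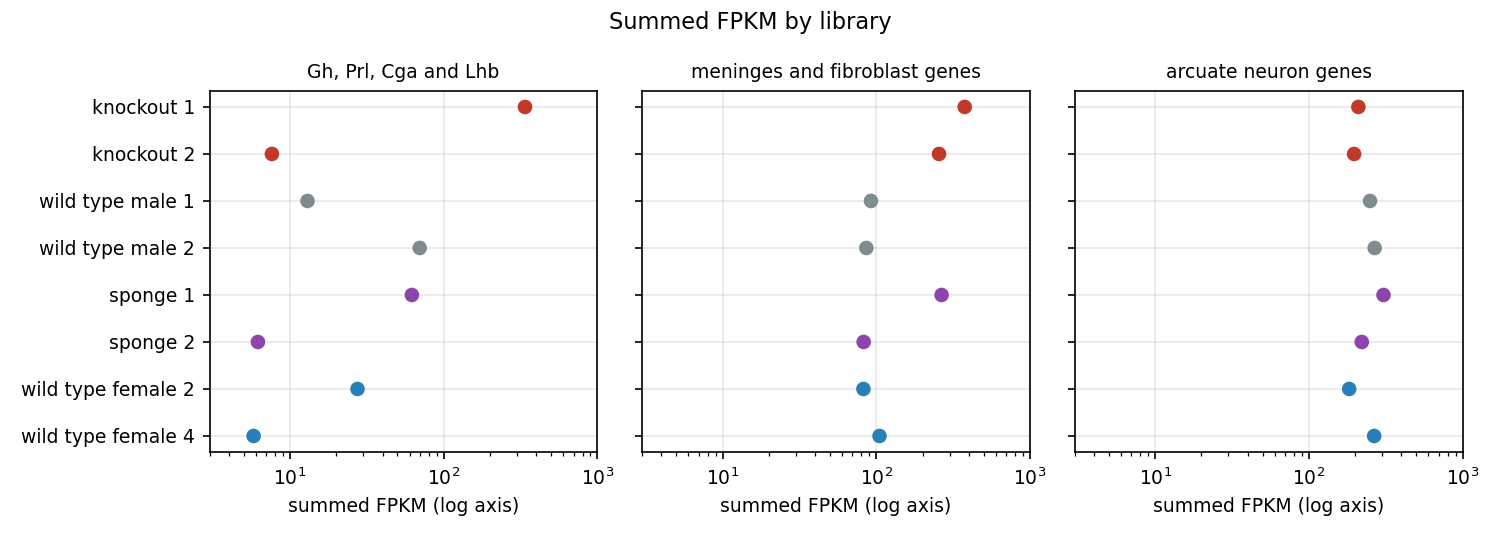
Summed FPKM per library (log axis) of Gh, Prl, Cga and Lhb, of the meninges and fibroblast genes and of the arcuate neuron genes. The hormone sum runs from 5.80 in wild type female 4 to 338 in knockout 1, and the arcuate neuron sum from 183 to 306. Single arcuate genes vary more than their sum, for example Cartpt from 12.2 to 119 FPKM.

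The genes whose log2(FPKM + 1) followed Gh or Prl most closely over the 8 libraries were picked out of 11944 genes with a mean of at least 1 FPKM. For Gh they were Med21 (Pearson r = 0.96), A430005L14Rik (0.94), Sap30 (0.93), Sri (0.92) and Igsf1 (0.92). Igsf1, a membrane glycoprotein gene expressed in the pituitary, was at 32.0 and 27.6 FPKM in knockout 1 and 2. It was at 26.1 and 31.1 FPKM in wild type male 1 and 2. Over the 8 libraries Igsf1 ran from 23.9 to 32.0 FPKM, a narrow range beside that of Gh. For Prl they were Bad (0.97), Pcmt1 (0.97), Rab22a (0.95), Bysl (0.95) and Nsun2 (0.95). Without knockout 1 these correlations were 0.86 to 0.97 for the first list and 0.88 to 0.93 for the second. Both lists hold the highest correlations found, so a gene outside them has a lower r by selection. Among the hormone genes r was 0.84 for Gh and Prl, 0.85 for Gh and Cga and 0.86 for Prl and Cga over 8 libraries. Without knockout 1 it was 0.66, 0.67 and 0.68 in the same order. Out of 11943 genes, Prl ranked 50 and Cga 42 in likeness to Gh, and Gh ranked 70 and Cga 45 in likeness to Prl. Since the hormone genes were selected on these libraries, nothing is read from the ranks. The same 8 libraries enter every value, and the correlations are a description with no test.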

How the data were processed

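RNA of 8 arcuate nucleus libraries was measured. Poly(A) RNA was bound to oligo(dT) beads, and stranded libraries were read from both ends, per the labels' protocols. FastQC, cutadapt, HISAT2 2.0.4 and StringTie 1.2.3 with the builds mm10 and GRCm38 are named in the submitters' processing notes. The authors deposited FPKM per gene and transcript; the design text of the series names Ballgown. Deposited log2 columns hold group means and fold changes, the deposited fold columns ratios, and the deposited p-value and q-value columns the authors' own test; none of these is used in the results. The lowest higher group mean FPKM in each gene table was 0.500, which gives the cut-off stated.

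From the deposited FPKM, limma 3.58.1 (R 4.3.3) was run on log2(FPKM + 1), using eBayes with a trend, per comparison over its 4 libraries, for genes with a mean FPKM of at least 0.5. All p-values are two-sided, adjusted by Benjamini-Hochberg over all genes tested, and called under 0.05. A fold change on this scale understates that of low genes. The labels give litter status but no pairing of pools, so p-values reflect only how far these libraries differ, which may be technical. The fit was first tested on simulated data in which every gene had the same spread. Genes that vary as much between libraries as Gh and Prl were thus not covered by that test. The low values were not whole multiples of a common step, so reads were not recovered.

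The 7 hormone and factor genes, the gene lists and the genes named were chosen with earlier results of these data known. Genes named are the 7, a written list of related genes, the 2 most abundant and the smallest p of each list, and the 5 most like Gh and Prl. The alternatives are in the closing section. The repeat tables of FPKM, 4 in number, held the same values and were not used separately. Some genes of the transcription factor list are not reported here.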

Additional observations from a re-analysis of the deposited data

Results flagged for a closer look

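Tshb, the thyrotropin beta subunit gene, appeared in data outside the gene-level comparisons: its transcript Tshb-001 had an FPKM of 1.587 in knockout 1 and was listed at 0 in knockout 2 and in both wild type male libraries. A transcript row with a value above its control libraries is what marked it. The row passed the cut-off, a group mean of 0.5 FPKM, through knockout 1 alone (knockout mean 0.794 FPKM). A value above controls listed at 0 thus follows from the cut-off, and nothing is read from it. There is 1 library with a value, so no spread can be given.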

How the results depend on the processing

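The hormone genes' fold changes kept their sign under every change of pseudocount, filter, scaling, trend, fit over 8 libraries and test that gave a value, and changed sign in places when 1 library was left out. With 1 library left out, their median log2 fold change ran from -0.82 to 3.25 (lowest -0.818, highest 3.245) for knockout, -0.60 to 1.45 (lowest -0.596, highest 1.449) for sponge and -0.37 to 0.08 (lowest -0.37, highest 0.076) for females over males. Cga moved to 2.60 (pseudocount 0.1) and 2.36 (libraries rescaled to an equal sum) for sponge, and to -1.17 and -0.99 for the sexes. The same 2 choices gave 3.53 and 3.13 for Sstr1, knockout, and for the sexes 5.32 and 4.89 for Sstr1, -4.79 and -4.27 for Sox14 and -2.40 and -2.15 for Insm1. For sponge they gave 1.27 and 1.26 for Tshr and 0.63 and 0.64 for Cpxm2. With a library left out, Sst ran from 1.39 to 5.45 and Tshr from 0.20 to 1.16 for sponge. With a library left out, the spread comes from the other group alone, the lone sample is assumed to vary like it, and a count of 0 called says little. For knockout the 8 became 2 with a pseudocount of 0.1, 0 with an ordinary equal-variance test (845 at an unadjusted p under 0.05) and 0 with any library left out (695 to 1146 unadjusted). For sponge the 14 became 2 in 1 fit over 8 libraries, 1 with the ordinary test and 0 with a library left out (685 to 713 unadjusted). For the sexes the 9 became 3, 1 and 0 (633 to 897 unadjusted) in the same order. With the replicate block the knockout comparison called 0 genes (582 unadjusted). The same-numbered libraries' deviations correlated at 0.001 over 13155 genes, so they showed no shared shift. With 2 libraries per group, this cannot settle whether the pools were paired. The sponge and sex comparisons share only 1 number, so no paired analysis was possible for them. With a library left out, Pomc ran from -1.98 to 0.79 for sponge, positive only without sponge replicate 2. For the sexes it ran from -0.23 to 0.87, and was negative without wild type female replicate 4 (-0.14) and without wild type male replicate 2 (-0.23). The cause was not tested for any of these. Unknown depth limits what can be said of values under 1 FPKM, and 2 libraries per group limit every comparison.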
